A study of Mus musculus with 2 samples.

Results

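miR-296 and miR-298 are a pair of neighbouring microRNA (miRNA) hairpins in the imprinted Gnas and Nespas region of mouse chromosome 2. Their strands were taken from the deposited miRNA table by hairpin name, mir-296 or mir-298. This gave 3 mature strands of the 281 in the table, namely mmu-miR-296-3p, mmu-miR-296-5p and mmu-miR-298-5p (the mouse prefix mmu is left out from here on), from 2 hairpins. The pair was chosen with its read counts known, so its values are given as a description with no test.

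The samples were 1 DICER1 mutant liver and 1 wild-type liver, both from C57BL/6 mice aged 3 months, in a study of a mouse model of DICER1 syndrome. In people, DICER1 syndrome is an inherited risk of tumours that follows from altered copies of the Dicer gene, and the deposited column headers call the mutant hDICER1_Mut. The labels give neither the variant nor the number of mutant alleles, and they do not say whether the mutant tissue was a tumour, while the design text of the series mentions both healthy and cancerous liver. Small RNA was sequenced from total RNA and assigned to the 5p or the 3p strand of each hairpin. With 1 library per genotype, genotype, animal, tissue piece and library cannot be told apart, there is no replicate check, and all 95% intervals cover counting error only. In bulk tissue, fewer cells of a type and less RNA per cell cannot be told apart either.

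Dicer cuts a miRNA hairpin into a short duplex. The cut by its RNase IIIb domain frees the 5p strand, on the 5′ side of the hairpin, and the cut by RNase IIIa frees the 3p strand. Usually 1 of them is kept by an Argonaute protein and pairs with target messenger RNAs through its seed, bases 2 to 8. miR-296 and miR-298 have been reported as imprinted and expressed from the paternal allele, like Nespas, the noncoding antisense transcript of Gnas. In human endothelial cells miR-296 has been studied as a miRNA of blood vessel growth, in mouse embryonic stem cells as a repressor of pluripotency factors such as Nanog, and miR-298 has been described as a repressor of the secretase gene Bace1.

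The 3 mature strands are shown because their different seeds and base composition identify what was counted. Sequences and positions are from RefSeq on GRCm38.p6, the assembly also called mm10, and capitals mark the seed.
miR-296-3p: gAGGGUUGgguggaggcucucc
miR-296-5p: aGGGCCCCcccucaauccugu
miR-298-5p: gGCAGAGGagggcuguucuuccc
The 3 seeds differ from each other, and none was shared with another of the 251 listed strands found in RefSeq by name or with another mouse strand in its table. The longest stretch in common was 4 bases between the strands of miR-296 and 5 bases between miR-298-5p and either of them. All 3 were rich in G and C, with 68.2% in miR-296-3p, 66.7% in miR-296-5p and 65.2% in miR-298-5p, against a median of 47.4% over the 251 strands, among which they ranked 4, 7 and 11 from the highest. miR-296-5p carries a run of 7 C, the only run of that length among the 251. Both miR-296-3p and miR-298-5p begin with G, a first base of 23 of the 251 strands (9.16%), and miR-296-5p begins with A, as did 78 (31.1%).

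The hairpins show how the strands lie to each other. Capitals here mark the listed mature strands.
mir-296: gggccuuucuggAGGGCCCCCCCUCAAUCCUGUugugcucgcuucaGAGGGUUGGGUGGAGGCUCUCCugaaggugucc
mir-298: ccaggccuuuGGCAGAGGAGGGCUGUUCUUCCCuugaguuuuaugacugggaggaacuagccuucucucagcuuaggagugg
mir-296 lies at chr2:174267047-174267125 and mir-298 at chr2:174267504-174267585, both on the minus strand, with 378 bases between them. In GENCODE M21 no other gene overlaps these 539 bases, so both hairpins lie outside annotated exons and introns. The annotated Nespas gene, on the same strand at chr2:174281237-174295436, ends 13.7 kb before mir-298 in the direction of transcription. Gnas lies on the opposite strand at chr2:174284320-174346744. The RefSeq table gives 4 mature strands for the 2 hairpins, and the fourth, miR-298-3p, was not analysed here.

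All 3 strands were scarce in the wild-type library and far more frequent in the mutant library. Levels are given as RPM, the reads of a strand per 1000000 reads of its library, and the library totals were 18480608 reads in the mutant and 11432192 in the wild type. Together the 3 strands took 4685 reads in the mutant liver, against 62 in the wild-type liver. This was 253.5 RPM (interval 246.3 to 260.9) in the mutant and 5.42 RPM (interval 4.16 to 6.95) in the wild type, which makes the ratio 46.7 (interval 36.4 to 61.1). The wild-type values are the imprecise ones, since 1 wild-type read is worth 0.0875 RPM.

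miR-296-3p had 1648 reads or 89.2 RPM in the mutant liver (interval 84.9 to 93.6), against 12 reads or 1.05 RPM in the wild-type liver (interval 0.542 to 1.83). It was 85.0-fold higher in the mutant (interval 48.5 to 165). miR-298-5p had 2217 reads or 120.0 RPM in the mutant liver (interval 115.0 to 125.1), against 22 reads or 1.92 RPM in the wild-type liver (interval 1.21 to 2.91). All 3 strands were at least 2-fold higher with a ratio interval excluding equality. So were 171 of the 276 listed miRNAs with at least 10 reads (62.0%). The strands were chosen with their counts known, and the authors listed only miRNAs past a 2-fold limit. miR-298-5p was 62.3-fold higher (interval 41.1 to 99.7). miR-296-5p had 820 reads or 44.4 RPM in the mutant liver (interval 41.4 to 47.5), against 28 reads or 2.45 RPM in the wild-type liver (interval 1.63 to 3.54). It was 18.1-fold higher (interval 12.4 to 27.4), so the smallest of the 3 ratios belonged to the strand with the most wild-type reads.

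**Figure D1:**
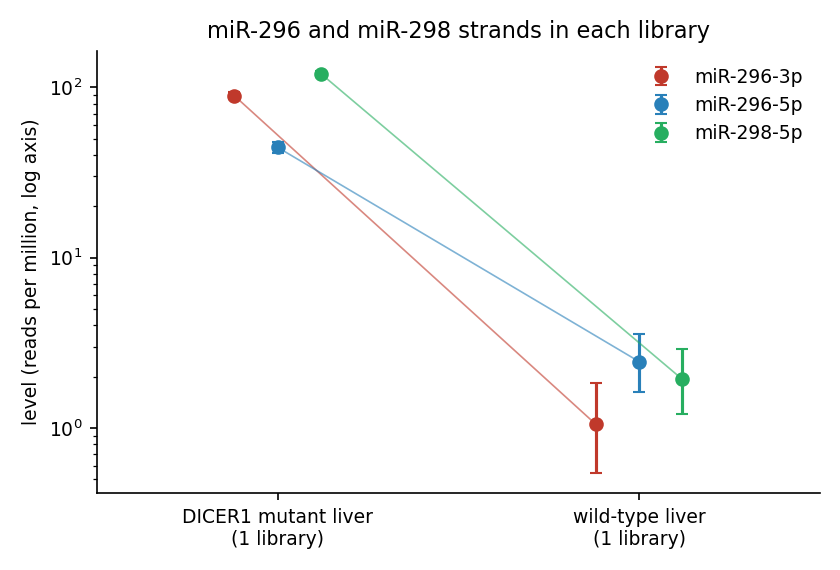
Level of each strand in RPM (log axis) in the DICER1 mutant library and the wild-type library. Points are single libraries and bars are exact Poisson 95% intervals. The 3 strands lie between 44.4 and 120.0 RPM in the mutant and between 1.05 and 2.45 RPM in the wild type, and miR-296-5p is the lowest of them in the mutant and the highest in the wild type.

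The order of the strands differed between the libraries. In the mutant liver miR-298-5p was the most abundant, followed by miR-296-3p and miR-296-5p, and each neighbouring pair differed beyond counting error. miR-298-5p made up 57.4% of the 3865 mutant reads of itself and miR-296-3p (exact Clopper-Pearson interval 55.8% to 58.9%). In the wild-type liver miR-296-5p was the most abundant, followed by miR-298-5p and miR-296-3p. There neighbours in the order could not be told apart at this depth. miR-298-5p made up 44.0% of the 50 reads of itself and miR-296-5p (interval 30.0% to 58.7%) and 64.7% of the 34 reads of itself and miR-296-3p (interval 46.5% to 80.3%).

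Within the mir-296 hairpin the majority strand was 3p in the mutant and 5p in the wild type. miR-296-5p made up 33.2% of 2468 mir-296 reads in the mutant liver (interval 31.4% to 35.1%), against 70.0% of 40 reads in the wild-type liver (interval 53.5% to 83.4%). On the log2 scale the odds of 5p over 3p, mutant against wild type, gave a ratio of -2.20 (Woolf interval -3.16 to -1.23). This comparison of the strands of 1 hairpin does not depend on how the libraries are scaled, but it rests on 40 wild-type reads.

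A lower odds of the 5p strand was common among the listed hairpins. Of 62 hairpins with at least 10 reads per strand in total, 35 (56.5%) had an odds ratio interval below 0 and 2 (3.23%) an interval above 0, with a median log2 odds ratio of -0.53. The 62 are not all separate measurements. miR-199a-3p and miR-199b-3p have identical counts, and mir-199b is 1 of the 2 above 0. mir-299a and mir-299b have nearly the same counts. For mir-219a the 5p strand was listed for mir-219a-1 and mir-219a-2, the 3p strand for mir-219a-1 only. Likewise, the 5p strand of mir-181b was listed for mir-181b-1 and mir-181b-2, the 3p strand for mir-181b-2 only. mir-296 had the 13th lowest value, so its direction was that of most hairpins with an interval excluding equality. The 5p strand held the majority in the wild type and the 3p strand in the mutant in 7 of 62 hairpins (11.3%), namely mir-1247, mir-154, mir-99a, mir-219a, mir-337, mir-296 and mir-382, and the opposite change was seen in 0. Of these, mir-154, mir-337 and mir-382 were on the list used here for the imprinted Dlk1-Dio3 cluster of chromosome 12, and mir-1247 was not. The 5p share was 33.6% of reads in the mutant and 96.9% in the wild type for mir-154, 44.8% and 85.7% for mir-337, and 35.5% and 55.6% for mir-382, whose odds ratio interval included equality. The table lists only strands past the authors' limits, so hairpins with 1 listed strand, mir-298 among them, have no such ratio here.

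**Figure D2:**
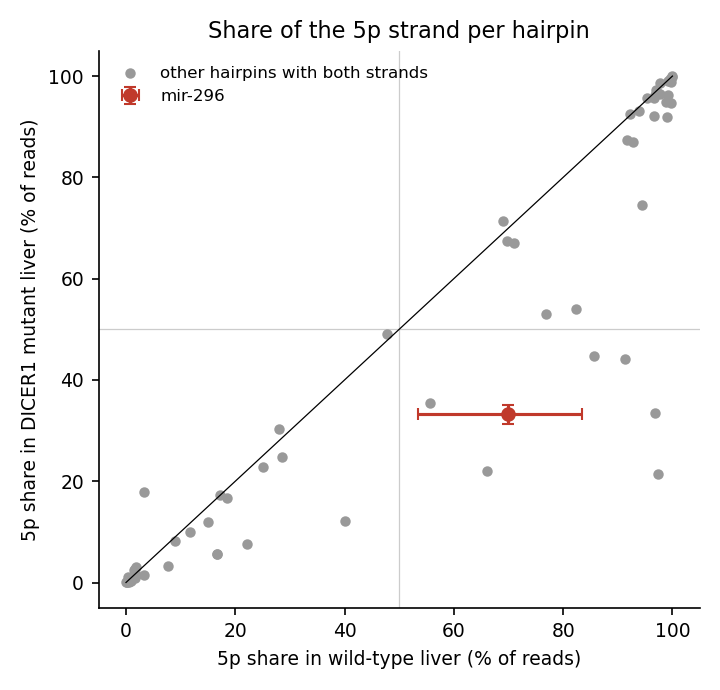
Share of the 5p strand among the reads of each of 62 hairpins in the DICER1 mutant library (vertical axis, percent) against the wild-type library (horizontal axis, percent). Bars on mir-296 are exact 95% intervals, the diagonal marks equal shares and grey lines mark 50%. mir-296 lies at 33.2% in the mutant and 70.0% in the wild type, in the lower right corner region with the 6 other hairpins whose majority strand changed.

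The ratios of the 3 strands were also compared with each other, which again does not depend on the scaling. miR-296-3p and miR-298-5p, from opposite arms of different hairpins, could not be told apart: the ratio of miR-298-5p was 0.747 times that of miR-296-3p (interval 0.373 to 1.5). The 5p strands differed. The ratio of miR-298-5p was 3.42 times that of miR-296-5p (interval 1.96 to 5.98), and the ratio of miR-296-3p was 4.58 times that of miR-296-5p (interval 2.34 to 8.95). The strand whose ratio differed from both others beyond counting error was therefore miR-296-5p.

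Most listed miRNAs were higher in the mutant, which sets the background for these ratios. With a call made at 2-fold or more and an interval excluding equality, 171 of 276 listed miRNAs with at least 10 reads (62.0%) were higher, as were 3 of 3 strands of the pair, and 20 (7.25%) were lower. Among listed 3p strands 107 of 144 (74.3%) were higher and among 5p strands 55 of 103 (53.4%). Because the authors listed only miRNAs past a 2-fold limit on their own scale, any strand listed as higher had a ratio of at least 4.78 here, and the calls of the 3 strands carry no information beyond their being listed. Their sizes do describe them. The log2 ratios, with a pseudocount of 0.5 reads, were 6.36 for miR-296-3p, 5.94 for miR-298-5p and 4.16 for miR-296-5p, against a median of 2.74 over all 276, 3.48 over 3p strands and 2.33 over 5p strands.

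Of the listed miRNAs, 221 had 100 reads or more in total. Among these, 12 had a higher ratio than miR-296-3p, 19 than miR-298-5p and 54 than miR-296-5p. Of the 85 such 5p strands only miR-582-5p had a higher ratio than miR-298-5p. It had 568 reads in the mutant and 1 in the wild type, so its own ratio is poorly fixed. In level the pair was of middle rank in the mutant, where miR-298-5p, miR-296-3p and miR-296-5p were at ranks 83, 92 and 114 of the 281 listed strands. In the wild type they were at ranks 172, 197 and 161.

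**Figure D3:**
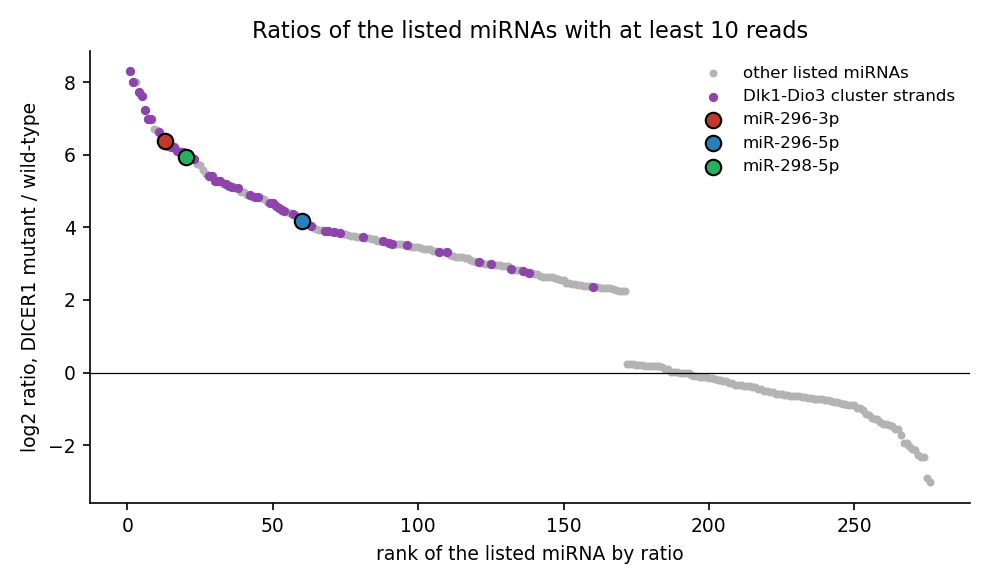
Log2 ratio of RPM, DICER1 mutant over wild type, for 276 listed miRNAs in order of their ratio. The strands miR-296-3p, miR-298-5p and miR-296-5p, at 6.36, 5.94 and 4.16, lie among the Dlk1-Dio3 cluster strands, and the step in the curve is where the authors' 2-fold limit left miRNAs out.

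The miRNAs with the most similar ratios were chosen by the smallest difference in log2 ratio among the 221, over 2 libraries, which is a weak measure of likeness. All 3 nearest to miR-296-3p came from the Dlk1-Dio3 cluster. They were miR-370-3p with 197 reads in the mutant and 1 in the wild type, miR-329-3p with 411 and 3, and miR-410-3p with 13918 and 115. miR-410-3p, the best measured, was 74.9-fold higher (interval 62.3 to 90.8). All 3 nearest to miR-298-5p came from that cluster too, namely miR-494-3p with 330 reads in the mutant and 3 in the wild type, miR-376a-3p with 327 and 3, and miR-433-3p with 225 and 2. Cluster strands were common at such ratios, so these neighbours show no special likeness to the pair. They were 9 of the 12 miRNAs with a higher ratio than miR-296-3p and 15 of the 19 with a higher ratio than miR-298-5p. The 3 nearest to miR-296-5p were of mixed origin. miR-200a-3p, an epithelial miRNA, was 17.4-fold higher (interval 15.9 to 19.0), miR-214-3p, a miRNA of stromal cells, was 17.1-fold higher (interval 15.5 to 18.9), and miR-382-5p of the Dlk1-Dio3 cluster was 17.4-fold higher (interval 7.30 to 54.6).

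miRNAs chosen for a similar level in 1 library had ratios both near to and far from those of the pair. Nearest in level to miR-298-5p in the mutant were miR-29b-3p, at 116.6 RPM in the mutant and 130.6 RPM in the wild type, and miR-199b-5p, at 114.5 RPM in the mutant and 3.59 RPM in the wild type. miR-199b-5p was 31.9-fold higher (interval 23.5 to 44.6), and its ratio was not compared directly with that of miR-298-5p. Nearest to miR-296-3p in the mutant were miR-361-5p, at 95.3 RPM in the mutant and 115.7 RPM in the wild type, and miR-22-5p, at 96.5 RPM in the mutant and 122.8 RPM in the wild type. Both had ratios below 1, at 0.823 and 0.786. Nearest to miR-296-5p in the mutant were miR-369-3p and miR-379-5p of the Dlk1-Dio3 cluster, 39.4-fold and 5.18-fold higher. The nearest to miR-296-3p by wild-type level were let-7c-1-3p and miR-132-5p, 5.14-fold and 6.47-fold higher, and the nearest to miR-298-5p were miR-125a-3p and miR-6978-3p, 13.6-fold and 12.2-fold higher. The intervals of these 4 lay below that of the strand they were matched to. Nearest to miR-296-5p by wild-type level were miR-374c-3p, 5.41-fold higher (interval 3.65 to 8.32), and miR-379-3p, 15.2-fold higher (interval 10.5 to 22.8), whose ratio could not be told apart from that of miR-296-5p.

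Other imprinted miRNAs in the table give a comparison by kind of locus. The Dlk1-Dio3 cluster is expressed from the maternal chromosome, unlike miR-296 and miR-298. The 55 listed strands of this cluster came from 41 of the 59 hairpins taken for it. All 55 were higher, against 62.0% of all 276 listed miRNAs. As with the pair, these calls carry no information beyond the listing. Their median log2 ratio was 4.89, with a range of 2.37 to 8.29. The count of 55 holds only for the hairpins taken. mir-1247 was not among the 59, and its strands went both ways, with a ratio of 0.230 for miR-1247-5p and 32.2 for miR-1247-3p. By arm, the 38 listed 3p strands of the Dlk1-Dio3 cluster had a median of 5.42 and the 17 listed 5p strands one of 3.52. Of the 38, 9 had a higher ratio than miR-296-3p. Of the 17, 2 had a higher ratio than miR-296-5p and 0 a higher one than miR-298-5p. The summed level of the cluster was 56900 RPM in the mutant and 1057 RPM in the wild type, 53.8-fold higher, against 46.7-fold for miR-296 and miR-298 together. Most of that sum was miR-127-3p, at 43617 RPM in the mutant and 589 RPM in the wild type, and without it the cluster was 28.4-fold higher, at 13284 RPM in the mutant and 468 RPM in the wild type. The 5 listed strands of the miRNA cluster in Sfmbt2, another imprinted gene, had a median of 3.47 and a range of 2.38 to 3.53 at low counts, below each of the 3 strands. They are 3 distinct measurements, because miR-467a-5p and miR-467b-5p have identical counts, as do miR-669a-3p and miR-669o-3p. The most abundant of them, miR-669o-3p, was 12.1-fold higher (interval 5.97 to 28.4). miR-335-3p, from the imprinted gene Mest, was 5.22-fold higher (interval 4.62 to 5.92), at 131.6 RPM in the mutant and 25.2 RPM in the wild type. With DESeq2 size factors 41 of the 55 Dlk1-Dio3 strands, 0 of the 5 Sfmbt2 strands and not miR-335-3p were still called higher. On that scale 27.2% of all 276 listed miRNAs were called higher, as were 3 of 3 strands of the pair, which was chosen with its counts known. The imprinted hairpins mir-483 and mir-675 were not analysed here. None of these differences between loci was tested.

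Strands that mark cell types other than hepatocytes were mostly higher too, and their part in the result was not tested. Over all 276 listed miRNAs 62.0% were higher and 7.25% lower. The liver miRNA miR-122-5p was present in both libraries, at 7303 RPM in the mutant and 14951 RPM in the wild type. Of 13 listed hepatocyte strands 0 were higher, 3 were lower and 10 were called neither, with a median log2 ratio of -0.64 and a summed level of 334422 RPM in the mutant and 614862 RPM in the wild type. With the authors' factors all 13 were lower, and with the sum of listed counts 1 was. Listing required a 2-fold difference on the authors' scale, so there 171 of the 276 listed miRNAs were higher, 105 lower and none neither. The most abundant was miR-192-5p, with a ratio of 0.360. All 6 listed mesenchymal strands were higher, with a median of 3.69 and a summed level of 12339 RPM in the mutant and 966.5 RPM in the wild type, identical counts entered once. They came from 4 of the 6 hairpins on that list, and the most abundant was miR-199a-3p, 12.8-fold higher. All 6 listed blood cell strands were higher, with a median of 2.87 and a summed level of 9674 RPM in the mutant and 1824 RPM in the wild type. They came from 4 of 9 hairpins, led by the leukocyte miRNA miR-142a-5p, 4.95-fold higher. Of 11 biliary and epithelial strands, from all 8 hairpins of that list, 8 were higher and 3 were called neither, with a median of 3.17 and a summed level of 5910 RPM in the mutant and 2105 RPM in the wild type. With the authors' factors, where the listing leaves no strand at neither, the 3 were lower and the list split into 8 higher and 3 lower. Their most abundant strand, miR-203-3p, had a ratio of 0.641, and without it the summed level was 4954 RPM in the mutant and 613 RPM in the wild type. The 2 listed neuroendocrine strands, from 2 of 11 hairpins, were both higher, with a summed level of 85.8 RPM in the mutant and 11.8 RPM in the wild type, led by miR-7a-1-3p, 7.64-fold higher. The endothelial markers mir-126a, mir-126b, mir-221, mir-222 and mir-424 were not analysed here. With DESeq2 size factors 2 of 6 mesenchymal, 1 of 6 blood cell, 5 of 11 epithelial and 0 of 2 neuroendocrine strands were called higher. All 13 hepatocyte strands and 3 epithelial strands were called lower. Over all 276 listed miRNAs 27.2% were higher and 38.0% lower on that scale. No listed marker was at 0 in either library, but neither was any other listed miRNA, and markers missing from the list cannot be judged. Apart from the epithelial list, whose values reached 6.72, the highest log2 ratio among the marker lists was 4.98, which is above miR-296-5p and below miR-298-5p and miR-296-3p.

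The size of the ratios depended on the scaling and their direction did not, over the scalings tried. On the scale behind the authors' normalized values, which lowers every ratio 2.38-fold, miR-296-3p was 35.6-fold, miR-298-5p 26.1-fold and miR-296-5p 7.60-fold higher. The lowest values came from DESeq2 size factors on the listed miRNAs, which set the typical listed miRNA to equality and shift every log2 ratio by -2.73. With these factors miR-296-3p was 12.8-fold higher (interval 7.33 to 24.9), miR-298-5p 9.42-fold (interval 6.21 to 15.1) and miR-296-5p 2.74-fold (interval 1.88 to 4.15). On that scale 75 of the 276 listed miRNAs (27.2%) were called higher and 105 (38.0%) lower, and the 3 strands were among the 75. The lower bound of miR-296-5p was then under 2.

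**Figure D4:**
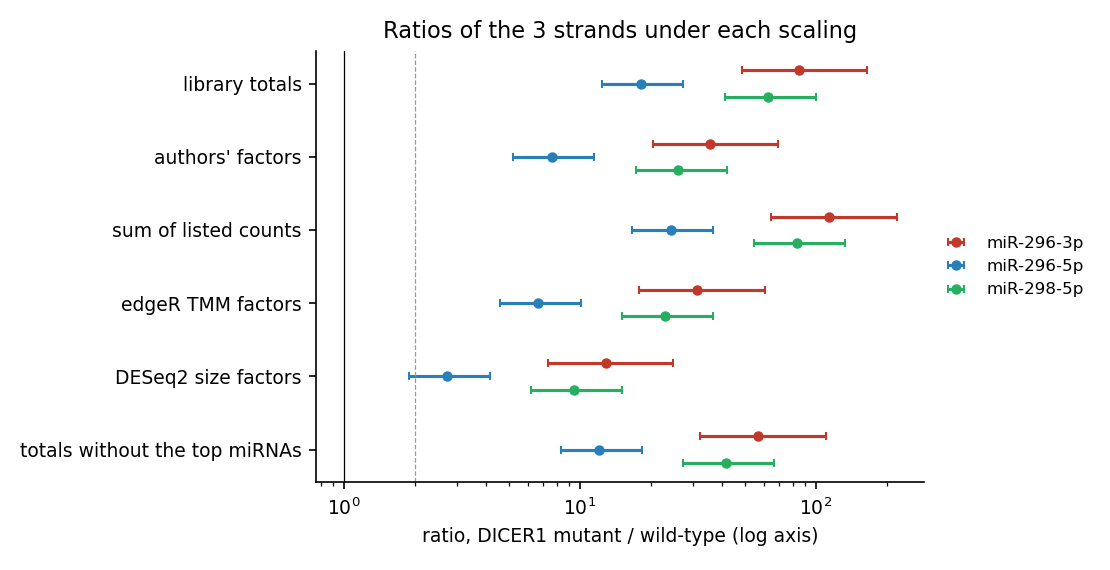
Ratio of each strand, DICER1 mutant over wild type (log axis), under 6 scalings of the libraries. Bars are exact 95% intervals for counting error, the solid line marks equality and the dashed line 2-fold. All ratios lie above 2, from 2.74 for miR-296-5p with DESeq2 size factors to 113.5 for miR-296-3p with the sum of listed counts, and miR-296-5p has the smallest ratio under each scaling.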

How the data were processed

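Small RNA libraries from total liver RNA were made with the SMARTer smRNA-seq kit, per the labels' protocols, which name a different sequencer model from the series description. Per the labels' protocols, reads were mapped to mm10 and miRBase 22.1 and sorted by hairpin arm. The submitters' processing notes name cutadapt. Not given in the sources used here are the aligner, how reads matching more than 1 miRNA were counted, and whether molecular identifiers were used. Intervals treat reads as independent, although some may be PCR copies.

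The authors deposited raw read counts and RPM for 281 miRNAs, each past their 2-fold limit (the smallest absolute fold score the authors deposited is 2.00). Count divided by RPM gave the library totals, and listed miRNAs took 61.2% of mutant and 81.8% of wild-type reads. Deposited log2 normalized values equal log2 of 1 plus RPM times a factor of 0.611 (mutant) or 1.46 (wild type). The p-values deposited by the authors compare 2 libraries and were not used. None of the listed miRNAs had a high one, so a p-value limit may have shaped the list besides the 2-fold limit.

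The members and lists were chosen with earlier results of these data known. Ratios are RPM in the mutant over the wild type, with exact conditional binomial 95% intervals. For log2 ratios, 0.5 reads were added, in proportion to library size. Strand odds ratios used Woolf intervals with 0.5 added to each count, and copies of a hairpin were summed per arm. Other miRNAs were named by rule: for each strand, the 3 nearest in ratio and the 2 nearest in level per library among those with at least 100 reads, and the most abundant strand of each list. miR-582-5p, miR-122-5p and the hairpins whose majority strand changed were named after their values were seen, and sums without a list's most abundant strand and list calls under the other scalings were added after seeing the data. At these depths 3 reads are 0.162 RPM in the mutant and 0.262 RPM in the wild type. The other scalings used edgeR 4.0.16 and DESeq2 1.42.0 factors on the listed counts, with no count model fitted. The calculations were tested on simulated data. Python 3.11.15 and scipy 1.17.1 were used.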

Additional observations from a re-analysis of the deposited data

How the results depend on the processing

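No paired analysis was possible because each genotype has 1 library, and no replicate could be left out. All 3 strands stayed at least 2-fold higher under every scaling and pseudocount tried, and pseudocounts moved no value beyond its counting interval. The log2 ratios of miR-296-3p, miR-298-5p and miR-296-5p were 5.13, 4.70 and 2.92 with the authors' factors, 4.94, 4.51 and 2.73 with TMM from edgeR, and with size factors from DESeq2 they were 3.67, 3.23 and 1.45. Without the top miRNA of each library in the totals, miR-298-5p was at 5.36 and miR-296-5p at 3.58. Factors from the listed rows depend on which miRNAs the authors listed. The number of listed miRNAs called higher, 171, was 75 with DESeq2 size factors. The number called lower, 20, was 105 with the authors', TMM or DESeq2 factors, 58 without the top miRNAs, 43 at a 1.5-fold limit, 8 at a 4-fold limit and 13 with at least 100 reads. The strand odds ratio of mir-296 stayed between -2.23 and -2.16. Depth limits the wild-type values, which rest on 12 to 28 reads per strand.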

Other observations

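The authors' deposited table gives signed folds of 35.5 for miR-296-3p, 26.1 for miR-298-5p and 7.59 for miR-296-5p. Its log2 normalized values for miR-296-3p were 5.79 in the mutant and 1.34 in the wild type, a difference of 4.46, or 21.9-fold. For miR-298-5p they were 6.21 in the mutant and 1.93 in the wild type, or 19.5-fold, and for miR-296-5p 4.81 in the mutant and 2.19 in the wild type, or 6.15-fold. These folds are smaller than the deposited ones because 1 is added before the logarithm, which weighs most on the wild-type values near 1 RPM. RPM ratios multiplied by the authors' factors, without the added 1, gave 35.6, 26.1 and 7.60.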
